A study of Homo sapiens with 32 samples.

Results

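The transcriptional interaction of salinomycin (Sal) and dasatinib (Das) was measured in MDA-MB-468 cells after 72 h of exposure, in 16 of the 32 RNA-seq libraries of the series. These 16 are the libraries of the 4 conditions at 72 h: control cells given PBS, 0.5 μM Sal, 15 μM Das, and both drugs at those concentrations (S + D, 15.5 μM in all). Each condition had 4 libraries, which the labels call biological replicates, 1 without a replicate number and 3 numbered 1 to 3. The members were chosen by time point and treatment label alone. The other 16 libraries hold the same 4 conditions at 24 h and were used only to compare the time points. MDA-MB-468 is an established line of triple-negative breast cancer, and all cells of the experiment came from this 1 line, grown in flasks at 1 dose of each drug, so neither a second line nor a dose series bears on the values.

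Sal is an ionophore that carries potassium and other cations across membranes, and disturbs the ion balance of mitochondria, the ER and lysosomes. Das blocks tyrosine kinases of the SRC and ABL families, which relay signals from integrins and growth factor receptors to the ERK cascade and to transcription. When 2 drugs act on a gene independently, their fold changes multiply, so that on a log2 scale the response to both equals the sum of the single responses. The question put to each gene was therefore whether log2(S + D) − log2(Sal) − log2(Das) + log2(control), the interaction, differed from 0. A value above 0 means a level with both drugs higher than the sum gives, and a value below 0 a lower one.

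Libraries at 72 h held from 27812240 to 40234975 counts. Epithelial markers of the line were present throughout. EPCAM lay between 250.3 and 379.5 CPM (read counts scaled to a common library size, here without and elsewhere with TMM factors). EGFR lay between 2740 and 5986 CPM, whereas the progesterone receptor gene PGR had at most 3 counts in any library. Of the other receptor genes examined, ESR1 stood at 4.88 to 12 CPM and ERBB2 at 55 to 167 CPM. Of 6 leukocyte markers, PTPRC, CD3E and LYZ stayed at or under 5 counts in each library, and CD14 carried most of the summed level, 25.8 to 34.4 CPM in control, 5.83 to 17.6 under Sal, 2.66 to 4.85 under Das and 3.82 to 5.72 under S + D. Of 6 fibroblast markers, COL1A1 made up most of a sum of 23.3 to 32.7 CPM in control, 53.8 to 76.5 under Sal, 34.4 to 71.4 under Das and 66.4 to 124 under S + D, while COL1A2, COL3A1, DCN and LUM stayed at or under 5 counts. The sum of 3 endothelial markers, led by KDR in control, was 5.23 to 7.8 CPM in control, 0.48 to 2.09 under Sal, 1.04 to 1.89 under Das and 0.34 to 0.68 under S + D. The part of these marker genes in the results was not tested. On the first principal component (66% of the variance) the library labelled Das replicate 3 scored −79.3, between the controls (−104 to −93.3) and the other Das libraries (−25.6 to −6.4). Genes that Das lowers differed in this library. SPRY4 (0.433 CPM) and ETV4 (0.557 CPM) were the lowest of the 4 Das libraries. NES (8.79 CPM), MYC (97.3 CPM), CCND1 (98.1 CPM) and E2F2 (78.7 CPM) were the highest. Over the genes called above 0 in the tests below, the median log2 change from the control mean was −0.64 in Das replicate 3. It was −1.13 to −0.75 in the other Das libraries. The unnumbered libraries of the 4 groups deviated together from their group means, with correlations of 0.53 to 0.63 across genes. Counts that move with these libraries are given below with and without them.

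For most genes that a single drug moved and that were called, both drugs together did less than their sum. Of 16682 genes tested with edgeR, 573 (3.43%) had an interaction above 0 and 682 (4.09%) one below 0 at an adjusted p under 0.01. The background of single responses was large, with 26.3% of genes higher and 26.8% lower under Sal, 10.5% and 9.36% under Das, and 27% and 27.9% under S + D. Among the 1255 genes called for the interaction, 1193 (95.1%) had been moved by 1 drug or both and had an interaction against that direction. They are classed as less than the sum. Some of them reversed, such as TNNT1, which Sal lowered (log2 −0.71) and S + D raised (0.70). Of the 1193 genes, 551 were raised by both drugs, 391 lowered by both, 119 lowered and 64 raised by Sal only, and 40 lowered and 28 raised by Das only. Just 8 genes moved further than the sum in the direction of a single drug, 10 were moved in opposite directions by Sal and Das, and in 44 neither single drug was called.

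The genes that both drugs moved the same way show the pattern as a whole. Sal and Das both raised 1441 genes, with a median log2 change of 1.51 under Sal, 0.99 under Das and 1.49 under S + D. For 1439 of them the estimated interaction lay below 0, and it was called for 38.2%. Both drugs lowered 1298 genes, with medians of −1.46, −0.96 and −1.57, and 1241 of these had an estimate above 0. Control libraries enter both single responses and, with the opposite sign, the interaction, so an error in the control level moves all of them. The Sal and Das libraries likewise enter their own single response and, with the opposite sign, the interaction. Choosing genes by a called single response therefore favors an interaction against that response. This holds for these counts and for the class less than the sum. With each control library left out in turn, between 341 and 472 genes were called above 0 and between 358 and 472 below.

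For most called genes that both drugs moved the same way, S + D was not called from the stronger single drug. Of the 942 genes that both drugs moved the same way and that were called as less than the sum, 869 were not called for a difference between S + D and the drug with the larger response. In 69 genes S + D fell short of that drug, and in 4 it went past it. The lack of a call does not show that the levels were equal. Sal was the stronger drug for 502 of the 551 raised and 281 of the 391 lowered genes. Across all genes tested, S + D was higher than Sal in 1.42% and lower in 1.59%, and higher than Das in 14.3% and lower in 17.7%. Without Das replicate 3 the class less than the sum held 2394 of 2467 called genes (97%), and in the numbered libraries alone 1963 of 2125 (92.4%). In the numbered libraries without Das replicate 3, both drugs moved 4036 genes of that class the same way. S + D was called short of the stronger drug in 572 of these and past it in 131, with 3333 not called.

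**Figure D1:**
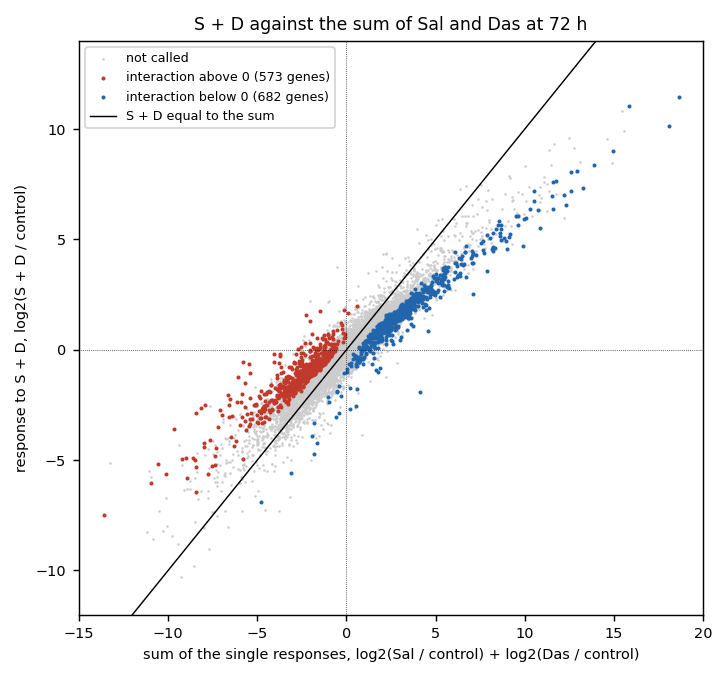
Response to S + D (y axis, log2 fold change from control) against the sum of the responses to Sal and to Das (x axis) for 16682 genes at 72 h; red points are the 573 genes with an interaction above 0, blue points the 682 below 0, gray points the rest, and the line marks a response equal to the sum. Points at both ends lie nearer to 0 on the y axis than the line; both axes contain the control libraries.

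The median interaction of the called genes was 1.33 above 0 and −1.35 below. Each of the 1255 genes had all 4 S + D libraries on the same side of the sum. The same libraries gave the calls, so this adds no separate support. Computed on linear CPM instead of the log2 scale, the sign was kept for all 573 genes above 0 and for 676 of the 682 below. For the 391 called genes above 0 that both drugs lowered, a log2 value above 0 implies a linear one above 0. Their sign could not change, so they add nothing to this comparison. A level near 0 limits what a fold change can show, and for 38 of the 573 genes the sum corresponds to fewer than 3 counts in an S + D library. In 9 genes above 0 and 23 below, every library of some group had 3 counts or fewer.

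Of the 23 gene lists examined, inflammatory chemokines and cytokines had the most calls with all libraries. In the numbered libraries alone this list had 14 calls of 30 genes, beside 18 of 42 in the interferon and MHC list. There were 16 calls each in the ERK output, glycolysis and sterol synthesis lists, of 34, 36 and 31 genes. In that fit 6.62% of all genes were above 0 and 6.24% below. Most genes of the chemokine and cytokine list encode secreted signals that attract or activate leukocytes, and many are switched on by the transcription factor NF-κB. Beside the genes named by rule, the genes described here and in the following paragraphs were picked after their values were seen. Of 30 genes tested, 14 had an interaction above 0 and none below, against 3.43% of all genes above. Sal lowered 20 of the 30 and Das 21. The median log2 change was −1.56 under Sal and −1.31 under Das but −0.94 under S + D, and the median interaction was 1.51, beside −0.05 over all genes.

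CXCL1, a chemokine for neutrophils (chr4:74735110-74737025 in GRCh37), fell with each drug and fell less with both. In the order unnumbered library, replicate 1, 2 and 3, CXCL1 stood at 5.29, 4.58, 3.93 and 3.08 CPM in the control libraries, at 0.275, 0.138, 0.328 and 0.140 under Sal, at 0.487, 0.246, 0.319 and 0.186 under Das and at 0.473, 1.07, 0.645 and 0.766 under S + D. Sal and Das overlapped, whereas the S + D libraries lay above all Sal libraries, above all Das libraries but the unnumbered one, and below every control library. The interaction was 5.42 ± 0.49 (SE, adjusted p = 7.01e-06). S + D lay above Sal by 1.70 and above Das by 1.21 on the log2 scale, both called.

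TNF, the founding cytokine of the tumor necrosis factor family, was lowered by each drug too. TNF stood at 1.83, 2.39, 1.66 and 2.38 CPM in the control libraries, at 0.275, 0.692, 0.196 and 0.314 under Sal, at 0.535, 0.154, 0.177 and 0.124 under Das and at 1.28, 1.48, 1.26 and 1.21 under S + D. Every S + D library exceeded every library of either single drug, and all 4 lay below the lowest control library. The interaction was 4.81 ± 0.56 (SE, adjusted p = 6.33e-05), and S + D did not differ from control at the threshold, with a log2 change of −0.66. The sum would put TNF under 3 counts in an S + D library, so the size of its interaction is imprecise.

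CXCL16, a transmembrane chemokine, had the smallest SE of the 14 called genes. CXCL16 stood at 40.9, 41.2, 44 and 46.8 CPM in the control libraries, at 17.1, 15.4, 17.1 and 15.8 under Sal, at 18, 14.6, 15.8 and 14.9 under Das and at 22.1, 24.7, 23.2 and 24.5 under S + D. The groups did not overlap, apart from Sal under Das, and the interaction was 1.98 ± 0.15 (SE, adjusted p = 1.05e-06). NFKBIA, which encodes the NF-κB inhibitor IκBα, had means of 53.5 ± 5.29 CPM in control, 15.8 ± 1.10 under Sal, 25.9 ± 4.17 under Das and 26.8 ± 1.81 with S + D (SD, n = 4), with an interaction of 1.81 ± 0.17 (SE, adjusted p = 1.16e-05). TNFAIP3, a deubiquitinase that also restrains NF-κB, was lowered by each drug (log2 −0.66 and −0.81) and stood at 0.14 from control under S + D.

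CCL20, which attracts lymphocytes, had an interaction of 5.52 ± 0.65 (SE, adjusted p = 6.33e-05), from levels of 1.65 to 3.28 CPM in control and at most 0.445 CPM under S + D. The sum would put CCL20 at 0.009 CPM and CXCL1 at 0.017 CPM, under 1 count in a library, so these sizes are imprecise. BIRC3, an inhibitor of apoptosis and NF-κB target, had the smallest at 0.97 ± 0.19 (SE, adjusted p = 0.00271). The remaining called genes were SAA1, CXCL3, SAA2, CXCL8, LIF, RELB and CX3CL1. SAA1 and SAA2 are near-identical copies, so reads may have been split between them. LIF was called in only 13 of 28 fits (the fit reported and 27 alternatives). The count of 14 stayed between 11 and 15 with any 1 library left out.

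**Figure D2:**
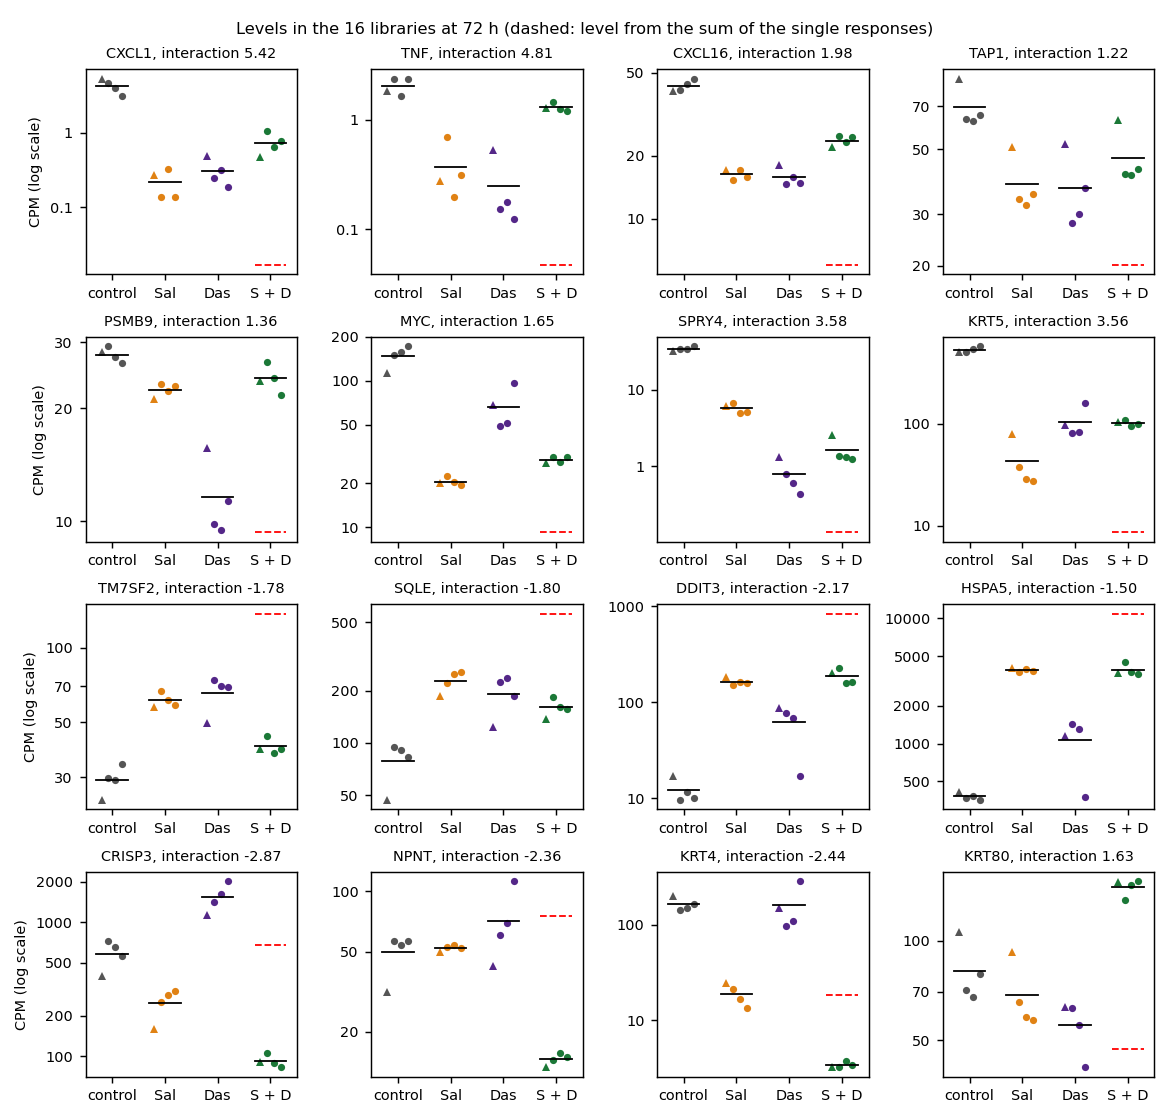
CPM (log scale) of 16 genes in the 16 libraries at 72 h, with triangles for the unnumbered libraries, circles for replicates 1 to 3, black lines for group means and a red dashed line for the S + D level given by the sum of the single responses. The S + D mean lies above the dashed line in 9 genes (CXCL1, TNF, CXCL16, TAP1, PSMB9, MYC, SPRY4, KRT5, KRT80) and below it in 7 (TM7SF2, SQLE, DDIT3, HSPA5, CRISP3, NPNT, KRT4).

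Promoters of the genes that moved together were searched for short motifs on both strands, from 250 bases before to 50 after the start of transcription. The NF-κB motif GGGNN directly followed by TTTCC occurred in 2.13% of the 11732 promoters of tested genes that RefSeq provides. It occurred in 20 of 434 promoters (4.61%) of genes with an interaction above 0 and in 8 of 506 (1.58%) below 0. Among the called genes of the chemokine and cytokine list, 6 of 8 promoters held it, those of BIRC3, NFKBIA, CCL20, TNFAIP3, CXCL3 and CXCL1. Among all tested genes of that list it was 8 of 21. The list includes regulators and targets of NF-κB such as NFKBIA, TNFAIP3 and BIRC3. It was written with earlier results known, and the motif was chosen after seeing the data, so this share adds no separate support. The sequences of CXCL1, CCL20 and NFKBIA follow, as 3 genes of that list that both drugs lowered and that hold the motif, together with TAP1 of the antigen presentation genes described next (GRCh38.p14, 5′ to 3′, motif matches in capitals).
CXCL1 promoter, chr4:73869143-73869442, plus strand: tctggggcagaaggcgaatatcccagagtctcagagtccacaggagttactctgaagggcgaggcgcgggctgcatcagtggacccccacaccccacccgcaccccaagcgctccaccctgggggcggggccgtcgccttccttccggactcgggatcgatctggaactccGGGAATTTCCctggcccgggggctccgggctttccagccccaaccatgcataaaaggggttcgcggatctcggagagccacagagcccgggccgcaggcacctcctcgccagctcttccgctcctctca
CCL20 promoter, chr2:227813592-227813891, plus strand: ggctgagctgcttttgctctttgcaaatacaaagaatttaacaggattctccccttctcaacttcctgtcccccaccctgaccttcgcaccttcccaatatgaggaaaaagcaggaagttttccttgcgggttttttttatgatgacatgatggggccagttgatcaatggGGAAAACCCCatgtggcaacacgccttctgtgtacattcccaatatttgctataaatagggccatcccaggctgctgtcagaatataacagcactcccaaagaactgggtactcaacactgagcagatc
NFKBIA promoter, chr14:35404700-35404999, minus strand: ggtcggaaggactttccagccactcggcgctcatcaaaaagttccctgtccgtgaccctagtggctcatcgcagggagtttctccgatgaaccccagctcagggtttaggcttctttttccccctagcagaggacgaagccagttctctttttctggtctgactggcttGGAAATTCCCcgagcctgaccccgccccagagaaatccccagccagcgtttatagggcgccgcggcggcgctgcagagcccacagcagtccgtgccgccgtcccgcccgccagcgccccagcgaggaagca
TAP1 promoter, chr6:32853655-32853954, minus strand: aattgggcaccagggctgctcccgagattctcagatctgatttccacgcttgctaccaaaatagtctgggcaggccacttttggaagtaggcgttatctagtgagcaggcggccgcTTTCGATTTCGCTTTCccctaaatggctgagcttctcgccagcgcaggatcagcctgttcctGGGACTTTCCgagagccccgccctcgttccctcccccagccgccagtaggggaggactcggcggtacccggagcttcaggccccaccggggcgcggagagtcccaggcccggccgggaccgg
The NF-κB match begins 79 bases before the start in CXCL1 and in CCL20, 81 in NFKBIA and 72 in TAP1. In TAP1 the longer run in capitals joins 2 overlapping matches of GAAA, any 2 bases and GAAA, the core of the interferon-stimulated response element (ISRE), which begin 134 and 128 bases before the start. A match is a run of letters and does not show binding.

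Interferon-stimulated and MHC class I genes formed the next group. Cells use MHC class I molecules to display peptides to T cells, and interferon signaling raises the genes that cut, carry and load those peptides. Of 42 genes tested, 11 had an interaction above 0 and 1 below. The median log2 change was −0.78 under Sal, −0.60 under Das and −0.56 under S + D, so that the median with both drugs was no lower than with Das alone. The median interaction was 0.68. The count above 0 was 14 without Das replicate 3, a fit in which 6.25% of all genes were above 0 and 8.29% below. It was 6 when any 1 of Das replicate 1 or 2, Sal replicate 2 or 3, S + D replicate 1 or control replicate 3 was left out, and 7 without control replicate 2.

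The called genes covered successive steps of antigen presentation. The immunoproteasome subunits PSMB8 and PSMB9 cut the peptides. PSMB9 stood at 28.2, 29.3, 27.3 and 26.4 CPM in the control libraries, at 21.1, 23.2, 22.2 and 22.8 under Sal, at 15.7, 9.85, 9.47 and 11.3 under Das and at 23.7, 26.6, 24.1 and 21.6 under S + D. All Das libraries lay below all others, S + D overlapped both Sal and control, and the interaction was 1.36 ± 0.20 (SE, adjusted p = 0.000331). TAP1 and TAP2 carry peptides into the ER, and TAP1 had means of 69.6 ± 11.8 CPM in control, 38.1 ± 8.59 under Sal, 36.7 ± 11 under Das and 46.8 ± 10.6 with S + D, with an interaction of 1.22 ± 0.29 (SE, adjusted p = 0.0084). In TAP1 the unnumbered library was the highest of each group, and the gene was called in 15 of 28 fits.

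HLA-C encodes a heavy chain of MHC class I and B2M the light chain, and their interactions were 1.17 ± 0.25 (SE, adjusted p = 0.00485) and 0.72 ± 0.17 (SE, adjusted p = 0.00779), called in 22 and 13 of 28 fits. HLA genes resemble one another closely, and reads may have been assigned between them. NLRC5, the activator of MHC class I transcription, was called with neither single drug. NLRC5 stood at 24.3, 16.2, 17.1 and 20.1 CPM in the control libraries, at 19, 13.4, 12.2 and 15.5 under Sal, at 17.1, 9.54, 9.79 and 14.4 under Das and at 35.2, 20.1, 26.6 and 30.8 under S + D. In 3 of 4 libraries S + D exceeded every other library, while its lowest was within the control range, and the interaction was 1.52 ± 0.30 (SE, adjusted p = 0.00303). MX1, BST2 and IRF1, which respond to or drive interferon signaling, were also called.

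STAT2, a transcription factor of interferon signaling, went the other way. It rose in all 3 treatments, with means of 49.3 ± 0.570 CPM in control, 278 ± 6.64 under Sal, 119 ± 43.2 under Das and 223 ± 38.1 with S + D, and its interaction was −1.60 ± 0.28 (SE, adjusted p = 0.00133). Das replicate 3 stood at 64.4 CPM, lower than the other 3 Das libraries. The ISRE core occurred in 5 of 9 promoters of the genes called above 0, those of BST2, MX1, B2M, TAP1 and TAP2, in 20 of 32 promoters of the whole list and in 2.73% of all promoters.

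ERK output genes include immediate early factors and the phosphatases and adaptors that feed back on the cascade. Of 34 genes, 9 had an interaction above 0 and none below, with a median of 0.65. Das lowered 22 and Sal 21 of them. SPRY4, a feedback inhibitor of receptor tyrosine kinase signaling, was lower with S + D than under Sal and higher than under Das, as was ETV4. SPRY4 stood at 32.3, 33.9, 34.1 and 37.2 CPM in the control libraries, at 6.22, 6.71, 5.01 and 5.17 under Sal, at 1.31, 0.800, 0.603 and 0.433 under Das and at 2.59, 1.35, 1.32 and 1.24 under S + D. The groups did not overlap except that the unnumbered Das library reached the lowest S + D library, and the interaction was 3.58 ± 0.38 (SE, adjusted p = 2.25e-05). ETV4, an ETS transcription factor, had an interaction of 3.75 ± 0.37 (SE, adjusted p = 1.62e-05) from means of 46.4 ± 4.30 CPM in control, 6.75 ± 1.45 under Sal, 1.25 ± 0.663 under Das and 2.46 ± 0.397 with S + D.

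FOSL1, a subunit of AP-1, gave the largest value of the list at 3.78 ± 0.36 (SE, adjusted p = 1.07e-05). FOSL1 stood at 7.95, 6.24, 5.98 and 5.96 CPM in the control libraries, at 3.10, 2.39, 2.23 and 1.75 under Sal, at 0.292, 0.308, 0.177 and 0.217 under Das and at 0.946, 1.63, 1.52 and 0.972 under S + D. Each S + D library was above each Das library and below each Sal library, though the difference from Sal missed the threshold (adjusted p = 0.0219). DUSP10, a phosphatase of JNK and p38, was called with neither drug alone and rose with both, from 6.70 ± 1.37 CPM to 10.6 ± 0.781, with an interaction of 1.72 ± 0.29 (SE, adjusted p = 0.000984). The smallest value was that of IER3, 1.38 ± 0.25 (SE, adjusted p = 0.00182), in which S + D (102 ± 13.1 CPM) was called below Das but not below Sal (adjusted p = 0.035). IER3 shares 38.9% of its exon bases with other annotated genes, and whether the counting used strand is not given in the sources used here. The remaining genes were ETV5, PHLDA2, HMGA1 and DUSP5. The list had 12 calls above 0 and 3 below without Das replicate 3, beside 6.25% and 8.29% of all genes.

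Of 34 integrin, laminin and matrix genes, which anchor cells to their surroundings, 6 were above 0 and none below, with a median of 0.65 (0.73 with genes at the detection floor set to their bound). The count above 0 rose to 11, 10 and 10 without the unnumbered Das library, Das replicate 3 and the unnumbered Sal library, beside 4.96%, 6.25% and 5.4% of all genes. TNC, the matrix glycoprotein tenascin C, stood lower with Das than under S + D. TNC stood at 15.4, 11.7, 9.28 and 12.1 CPM in the control libraries, at 2.82, 0.519, 0.524 and 0.454 under Sal, at 0.146, 0.185, 0.106 and 0.186 under Das and at 0.807, 1.35, 1.08 and 0.825 under S + D. The unnumbered Sal library stood apart from the other 3, and the Das libraries lay below all others. The interaction was 6.10 ± 0.71 (SE, adjusted p = 6.33e-05), and S + D exceeded Das by 2.67 on the log2 scale without differing from Sal (adjusted p = 0.891). ITGA9, MMP7 and ITGA3 had values from 1.25 to 4.93. The sum would put TNC at 0.015, ITGA9 at 0.005 and MMP7 at 0.02 CPM, under 1 count in a library. The sizes of these interactions are therefore imprecise. ITGB5, with the smallest value at 1.00 ± 0.15 (SE, adjusted p = 0.00035), had groups that did not overlap, with control above Das, Das above Sal and Sal above S + D.

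Keratins are the intermediate filaments of epithelia, and different members mark basal and luminal cells. Of 36 keratin, cadherin and EMT genes, 6 were above 0 and 2 below. KRT5, a basal keratin, fell from 501 to 576 CPM in control to 27.6 to 79.3 under Sal, 82.1 to 158 under Das and 95.1 to 109 under S + D. S + D was higher than Sal and overlapped Das, and the interaction was 3.56 ± 0.39 (SE, adjusted p = 3.38e-05). KRT6B (4.48 ± 0.73), KRT16, KRT14 and KRT23 were also above 0. The sum would put KRT6B at 0.011 CPM, under 1 count in a library, so its size is imprecise.

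KRT80 was called with neither drug and rose with both. KRT80 stood at 106, 70.7, 67.6 and 79.2 CPM in the control libraries, at 92.6, 65.1, 58.7 and 57.5 under Sal, at 63, 62.5, 55.5 and 41.3 under Das and at 151, 132, 148 and 151 under S + D. All S + D libraries exceeded every other library, and the interaction was 1.63 ± 0.25 (SE, adjusted p = 0.00046). KRT4, a keratin of stratified linings, did the reverse. KRT4 stood at 200.4, 142, 148 and 165 CPM in the control libraries, at 24.4, 21.5, 16.7 and 13.5 under Sal, at 150.0, 96.6, 109 and 285 under Das and at 3.23, 3.27, 3.79 and 3.45 under S + D. The Das libraries lay on both sides of the control range (adjusted p = 0.935), Sal lowered the gene, and S + D took it below all other libraries, with an interaction of −2.44 ± 0.39 (SE, adjusted p = 0.000658). KRT81, a hair keratin, rose to 652 ± 118 CPM with Das but only to 280.4 ± 41 CPM under S + D, from 190.4 ± 13.9 CPM in control.

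Synthesis of cholesterol and fatty acids was the clearest group below 0. Its enzymes are controlled together by SREBP factors, which are activated when ER membranes run short of sterols. Of 31 genes, 12 had an interaction below 0 and none above, against 4.09% of all genes below. The median log2 change was 0.33 under Sal and 0.45 under Das, but 0.01 under S + D, and the median interaction was −0.79. S + D lay below Das in 18 of the 31 genes and below Sal in 4. Sal raised 13 of the genes and Das 15, whereas S + D raised 10 and lowered 8. The count of 12 stayed between 10 and 16 with any 1 library left out.

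TM7SF2, a sterol reductase (chr11:64879317-64883856 in GRCh37), was raised less by both drugs than by either. TM7SF2 stood at 24.3, 29.9, 29.3 and 34.1 CPM in the control libraries, at 57.9, 66.9, 61.4 and 59 under Sal, at 49.7, 74, 70.3 and 69.4 under Das and at 39.2, 44.1, 37.7 and 39.2 under S + D. Sal and Das overlapped, and each S + D library lay above each control library and below each library of either drug. The interaction was −1.78 ± 0.18 (SE, adjusted p = 2.02e-05).

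SQLE, squalene epoxidase, had the largest interaction of the 12. SQLE stood at 46.8, 94.9, 90.7 and 83.3 CPM in the control libraries, at 187, 222, 251 and 256 under Sal, at 123, 224, 238 and 186 under Das and at 138, 185, 161 and 158 under S + D. S + D stayed above control but below the level of 559.7 CPM that the sum gives, with an interaction of −1.80 ± 0.30 (SE, adjusted p = 0.000875). HMGCS1, an early enzyme of the pathway, had means of 154 ± 23.5 CPM in control, 292 ± 14.3 under Sal, 315 ± 55.3 under Das and 206 ± 19.5 with S + D and an interaction of −1.54 ± 0.19 (SE, adjusted p = 8.72e-05), though 37.7% of its exon bases are shared with other annotated genes. INSIG1, which retains SREBP in the ER, was raised by Das only, and LSS and MSMO1 returned to a level not called from control. HSD17B7, with the smallest value (−1.06 ± 0.23, adjusted p = 0.00491), was called in 19 of 28 fits. IDI1, MVD and STARD4 were also called. The short SREBP motif TCACNCCAC was found in 0 of the 9 promoters available for the called genes and in 1.09% of all promoters.

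Stress genes of the ER were raised mainly by Sal. The unfolded protein response induces chaperones and, through PERK and ATF4, genes of amino acid supply. Of 23 ER chaperone genes, Sal raised 21, Das 9 and S + D 20, with medians of 1.66, 0.57 and 1.59. Only HERPUD1, HSPA5 and EIF2AK3 were called, all below 0, and the median interaction was −0.60. HSPA5 encodes BiP, the main ER chaperone. HSPA5 stood at 409, 367, 384 and 355 CPM in the control libraries, at 4035, 3705, 3957 and 3820.4 under Sal, at 1161, 1437, 1301 and 373 under Das and at 3673, 4499, 3706 and 3607 under S + D. The library Das replicate 3 lay within the control range, the other Das libraries lay above it, and S + D overlapped Sal. The interaction was −1.5 ± 0.36 (SE, adjusted p = 0.00945) with all libraries and −1.79 without Das replicate 3, and HSPA5 was called in 10 of 28 fits. The list had 9 genes below 0 without that library (8.29% of all genes), 6 without the unnumbered Sal library (5.82%), and 19 without Das replicate 3 and with a term for the unnumbered libraries (15.8%). It had 2 without Das replicate 1 or 2, Sal replicate 1, 2 or 3, or any 1 S + D or control library. In the fits with 2 calls, 2% to 2.83% of all genes were below 0.

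DDIT3, the transcription factor CHOP, had the largest interaction among the ATF4 targets. DDIT3 stood at 17.2, 9.63, 11.6 and 10.2 CPM in the control libraries, at 182, 151, 162 and 161 under Sal, at 86.8, 77.1, 69.5 and 17.2 under Das and at 204, 227, 161 and 161 under S + D. Again Das replicate 3 reached only the top of the control range, and S + D overlapped Sal. Its interaction was −2.17 ± 0.46 (SE, adjusted p = 0.00421), and 39.6% of its exon bases overlap other genes. Of 29 ATF4 targets, 4 were below 0, DDIT3, ALDH1L2, CTH and SLC7A11, the cystine transporter, whose value was −1.15 ± 0.25 (SE, adjusted p = 0.0049). Of 20 cytosolic aminoacyl-tRNA synthetases, EPRS1 (−1.12 ± 0.20, adjusted p = 0.00169), WARS1 and IARS1 were below 0, with S + D not called from the higher single drug. Both small counts moved with single libraries. They were 7 in each list without Das replicate 3, beside 8.29% of all genes below 0. They were 1 in each without Das replicate 1 or 2 or control replicate 1 or 3, beside 2% to 2.39%.

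Genes of DNA replication and mitosis were lowered mainly by Sal, and the number of calls for the interaction moved with Das replicate 3. Of 40 replication genes, Sal lowered 31, Das 15 and S + D 35, with medians of −1.24, −0.67 and −1.51. Only RFC2, a subunit of the clamp loader, was called, at 0.64 ± 0.15 (SE, adjusted p = 0.00795), and no replication gene was called when any 1 of 14 of the 16 libraries was left out. Of 40 mitosis genes, Sal lowered 38, Das 3 and S + D 39, and none was called for the interaction. Without Das replicate 3, the calls above 0 became 10 of 40 and 4 of 40, and with a term for the unnumbered libraries added 21 and 22, with none below 0 in either list. Of all genes, 6.25% were above 0 in the first of these fits and 14% in the other, beside 3.43% with all libraries. Median interactions rose from 0.26 to 0.48 and 0.56 for replication and from 0.21 to 0.62 and 0.69 for mitosis.

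MYC, a driver of cell growth, was the only gene called of 30 in the G1/S list. MYC stood at 114, 151, 157 and 173 CPM in the control libraries, at 19.9, 22.2, 20.4 and 19.5 under Sal, at 67.9, 49.5, 51.8 and 97.3 under Das and at 27.2, 30.2, 27.9 and 30.2 under S + D. The groups did not overlap, with S + D just above Sal and below Das, and the interaction was 1.65 ± 0.25 (SE, adjusted p = 0.00046). CCND1, cyclin D1, fell to 45.4 to 52.5 CPM under Sal, 49.2 to 98.1 under Das and 15.1 to 20.1 under S + D, from 277 to 286 in control. S + D lay below both single drugs, yet the interaction was not called at 0.68 ± 0.24 (SE, adjusted p = 0.0569). Without Das replicate 3 it was 0.96 and was called (adjusted p = 0.000141), so that its call turned on this library.

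E2F2, a transcription factor of S-phase entry, had an interaction of 0.18 ± 0.53 (SE, adjusted p = 0.841). E2F2 stood at 137, 114, 117 and 129.6 CPM in the control libraries, at 41.3, 19.3, 13.9 and 14.8 under Sal, at 59.8, 25.4, 29.1 and 78.7 under Das and at 16.2, 6.25, 8.39 and 8.6 under S + D. The SE is larger than the estimate with all libraries. The interaction was 0.52 without Das replicate 3 (adjusted p = 0.478) and 1.11 in the numbered libraries without it (adjusted p = 0.000555), the 1 of 28 fits that called it. ESR2, estrogen receptor β, was raised by all 3 treatments from a control level of at most 0.134 CPM. ESR2 stood at 0.134, 0.033, 0.053 and 0.056 CPM in the control libraries, at 1.10, 2.00, 1.41 and 1.82 under Sal, at 0.195, 0.185, 0.354 and 0.279 under Das and at 1.45, 0.785, 1.39 and 1.21 under S + D. Its interaction of −2.15 ± 0.54 (SE, adjusted p = 0.0115) was not called, and passed the threshold in 9 of 28 fits.

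Metabolic and signaling lists are given together here. For glycolysis and hypoxia, 5 of 36 genes were above 0 and none below, CA12, PFKP, PKM, LDHA and GAPDH. The count was 11 without the unnumbered Das library (4.96% of all genes). Without Das replicate 1 or 2 or Sal replicate 2 or 3 it was 3. It was also 3 without S + D replicate 1 or control replicate 1 or 3. In the fits with 3 calls, 1.87% to 2.61% of all genes were above 0. LDHA, lactate dehydrogenase A, had means of 1194 ± 122 CPM in control, 506 ± 35.4 under Sal, 456 ± 65.2 under Das and 366 ± 47.5 with S + D and an interaction of 0.92 ± 0.17 (SE, adjusted p = 0.00206). NRF2 antioxidant targets had 4 of 28 above 0, led by HMOX1, heme oxygenase, at 1.82 ± 0.37 (SE, adjusted p = 0.00333), where Sal lowered the gene and S + D was not called from control. The NRF2 count was 2 without Das replicate 1 or 2, Sal replicate 2 or 3, or control replicate 3. It was 7 without Das replicate 3. Of all genes, 1.87% to 2.02% were above 0 in the former fits and 6.25% in the latter. Of 47 Wnt, STAT3 and hedgehog genes, 10 were above 0, from ID1 (2.56 ± 0.60) to STAT3, beside 3.43% of all genes. WNT5A was below 0 (−0.99 ± 0.21, adjusted p = 0.00411). The count above 0 was 7 to 12 with any 1 library left out, in fits with 1.87% to 6.25% of all genes above 0. SRC, the main target of Das, was among 6 of 27 receptor and SRC family genes above 0, a count of 4 to 6 in the same fits. SRC stood at 54.6, 49.5, 52.8 and 62.6 CPM in the control libraries, at 13.7, 9.89, 10.5 and 11.4 under Sal, at 31.2, 23, 21.1 and 35 under Das and at 13.6, 12.2, 12.3 and 13.7 under S + D. S + D overlapped Sal and lay below every Das library, and the interaction was 1.17 ± 0.22 (SE, adjusted p = 0.00198). DDR2, a collagen receptor kinase, was the 1 gene of that list below 0 (−2.81 ± 0.45, adjusted p = 0.000713).

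Few calls fell in the other lists. Lysosome and autophagy genes had 3 above 0 of 31, ATP6V0D2 (2.35 ± 0.32, adjusted p = 0.000225), CTSB and CTSD, and WIPI1 below 0 (−1.68 ± 0.31, adjusted p = 0.00197). YAP and TEAD targets had 2 of 25 above 0, IGFBP3 (1.92 ± 0.37, adjusted p = 0.00232) and F3 (1.11 ± 0.19, adjusted p = 0.00123). Ribosome biogenesis had 3 of 40, POLR1E, NOP16 and FBL, the values running from 0.69 ± 0.16 to 0.92 ± 0.16. Of 28 repair genes only ATM was called (−1.5 ± 0.26, adjusted p = 0.00123), raised by each treatment, and of 47 subunits of oxidative phosphorylation only NDUFS1 (−0.75 ± 0.17, adjusted p = 0.00679). AHR targets and transporters had ABCC3 (1.37 ± 0.30) and ABCC1 above 0 and ALDH3A1 (−1.34 ± 0.32) and CYP1B1 below. Of these 15 genes, CTSD, NOP16, FBL, NDUFS1, ABCC3, ABCC1 and ALDH3A1 were called in 13 to 24 of 28 fits and the other 8 in all 28. None of 26 BCL2 family and death receptor genes was called, with a median interaction of −0.04.

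**Figure D3:**
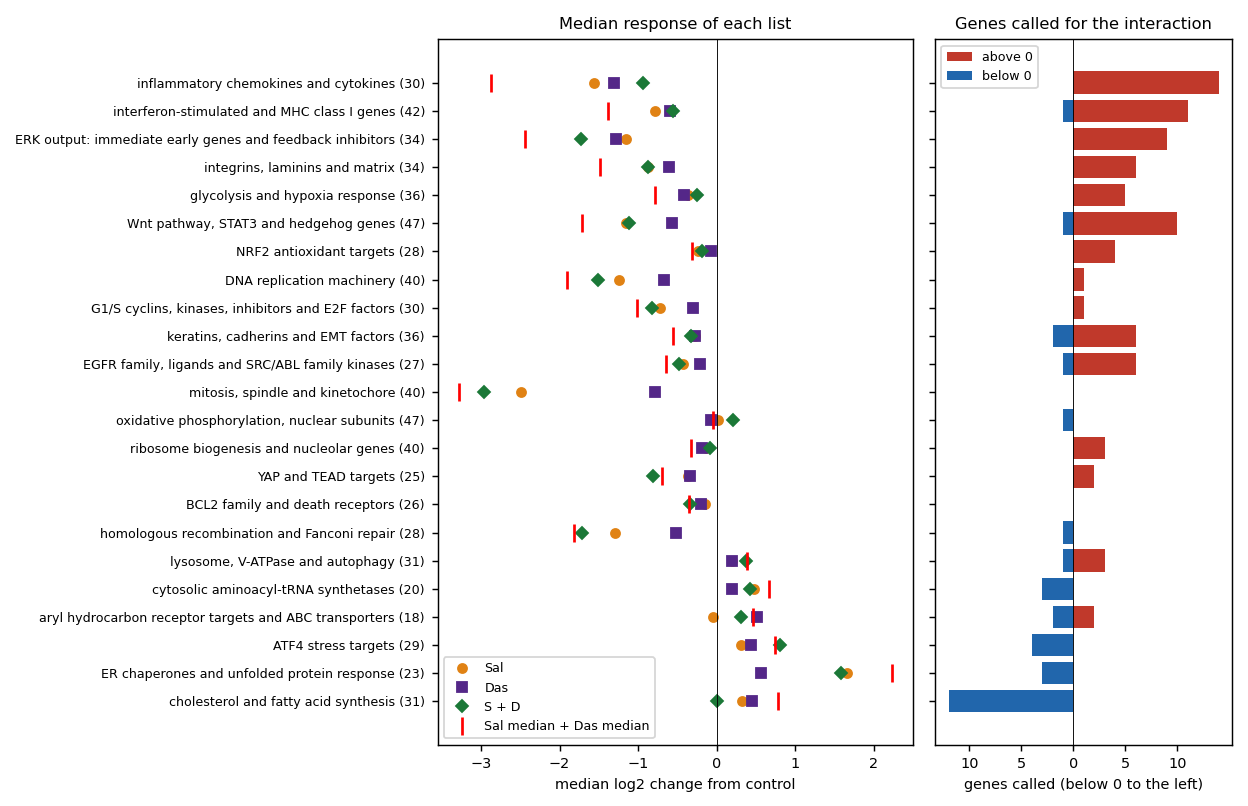
Left, median log2 change from control of each gene list with Sal (circle), Das (square) and S + D (diamond), and the sum of the medians under Sal and Das (red bar); right, number of genes of each list called above 0 (red) and below 0 (blue), with the number tested in brackets. Chemokines and cytokines have 14 calls above 0 and sterol and fatty acid synthesis 12 below, the diamond of the latter lying at 0.01.

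In 49 called genes S + D lay outside the range of the single drugs, above both in 24 and below both in 25. These were picked by that criterion after their values were seen. Above both drugs stood CXCL1, TNF, CXCL16, DUSP10 and KRT80, described above, and GADD45A, a growth arrest gene induced by stress. GADD45A stood at 63.5, 83.3, 80.4 and 74.8 CPM in the control libraries, at 60.6, 92.4, 91.6 and 93 under Sal, at 65.6, 62.3, 62.3 and 40.6 under Das and at 140.2, 181, 131 and 127 under S + D. All S + D libraries were above every other library, and the interaction was 1.17 ± 0.24 (SE, adjusted p = 0.0036). CSF1R, the receptor for macrophage colony-stimulating factor, was lowered by each drug and not called from control with both, at 12.8 ± 0.897 CPM in control and 14.1 ± 0.815 under S + D, with an interaction of 1.99 ± 0.29 (SE, adjusted p = 0.000367). OGDHL, a homolog of a citric acid cycle enzyme, rose from 1.25 ± 0.192 CPM in control to 4.26 ± 0.832 with S + D while Das lowered it.

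Below both drugs stood TM7SF2, KRT4 and several genes for which neither drug was called or the drugs went opposite ways. CRISP3, a secreted glycoprotein (chr6:49695089-49712150 in GRCh37), was lowered by Sal and raised by Das. CRISP3 stood at 395, 729.5, 649 and 559.7 CPM in the control libraries, at 159, 255, 288 and 304 under Sal, at 1141, 1429, 1627 and 2029.8 under Das and at 90.2, 105, 89.3 and 82.4 under S + D. The 4 groups did not overlap, S + D was lowest, and the sum of the single responses gives 671 CPM. The interaction was −2.87 ± 0.30 (SE, adjusted p = 2.37e-05). NPNT, nephronectin, an integrin ligand, was called with neither drug. NPNT stood at 31.4, 56.3, 54.3 and 56.6 CPM in the control libraries, at 50.1, 53.1, 54.3 and 52.5 under Sal, at 42.5, 60.5, 69.5 and 112 under Das and at 13.3, 14.5, 15.7 and 14.9 under S + D. Every S + D library lay below every other library, with an interaction of −2.36 ± 0.32 (SE, adjusted p = 0.000211). KITLG, the ligand of KIT, fell under Sal and further under S + D, to 19.3 ± 1.61 CPM from 98.8 ± 6.73, with an interaction of −1.39 ± 0.25 (SE, adjusted p = 0.00166). ERRFI1, an inhibitor of EGFR, fell below both drugs while falling less than the sum, as did TMPRSS4, MYEOV and UBASH3B.

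The genes with the largest interactions changed many-fold under single drugs. Above 0 were LRRC55, TNC, ITGA9, KRT6B, MMP7, ETV4, SAA1 and NES, all lowered by both drugs. LRRC55, a subunit of BK potassium channels, stood at 25.6 to 34 CPM in control and at most 0.370 CPM in any treated library, with an interaction of 6.13 ± 0.53 (SE, adjusted p = 4.24e-06). The sum would put it at 0.002 CPM, under 1 count in a library, so the value says only that it was near 0 in every treatment. NES, nestin, is the intermediate filament of progenitor cells, and had 3.68 ± 0.62 (SE, adjusted p = 0.00102).

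Below 0 were HTRA3, MUC4, SCN3B, NR4A3, TMEM151A, SERHL2, RAB39B and GRIN2C. NR4A3, an orphan nuclear receptor of the immediate early class, rose in all treatments. NR4A3 stood at 0.161, 0.498, 0.474 and 0.308 CPM in the control libraries, at 8.27, 13.1, 14.7 and 16.4 under Sal, at 12.5, 10.4, 10.4 and 4.64 under Das and at 8.01, 8.38, 11.3 and 9.87 under S + D. The 3 treated groups overlapped, and the interaction was −5.20 ± 0.45 (SE, adjusted p = 4.24e-06). MUC4, a membrane mucin that binds ERBB2, had at most 3 counts per control library. It stood at 32.7 to 65.1 CPM under Sal, 0.031 to 5.26 under Das and 24.2 to 43.3 under S + D. Das replicate 3 was the lowest of its group, at the level of the control libraries (0.033 to 0.084 CPM). Against a floor of 3 counts per control library the interaction of MUC4 is at most −5.60 and that of SCN3B at most −4.16. For HTRA3, a secreted protease with 0 counts in control, it is at most −2.73. SERHL2 was raised by Das to 7.52 to 11.5 CPM and by S + D only to 0.645 to 1.45, while 46% of its exon bases overlap other genes.

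Other motifs were counted in the promoters of all called genes. The AP-1 motif TGANTCA occurred in 8.06% of promoters above 0 and 4.55% below, beside 4.84% of all promoters. The serum response motif (CArG box) occurred in 1.84% and 0.988%, beside 1.02%, and the TEAD motif GGAATG in 9.45% and 11.7%, beside 11.2%. The ATF4 motif TTNCATCA occurred in 1.61% above 0 and 3.56% below, beside 1.79%, and the E2F motif TTTNNCGC in 7.6% and 9.68%, beside 10%.

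Fewer genes were called at 24 h. Of 16357 genes tested there, none was above 0 (0%) and 5 below 0 (0.0306%), with 1245 genes at an unadjusted p under 0.05 in edgeR. DESeq2 called 17 above and 130 below, and the replicate block gave 12 and 105. In the numbered libraries alone, 95 were above and 732 below at 24 h, beside 1094 and 1031 at 72 h. The 5 genes were MAGED1, COPG1, SEC24D, B3GNT9 and MAGEH1, and each was also called below 0 at 72 h. MAGED1, an adaptor of the MAGE family, had −1.82 ± 0.11 at 24 h (adjusted p = 5.87e-07) and −1.33 at 72 h. COPG1 and SEC24D are coat proteins of vesicles between the ER and the Golgi, with −1.01 and −1.19 at 24 h.

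The sign at 24 h was compared for the genes called at 72 h. Of 666 genes below 0 at 72 h that were tested at 24 h, 504 (75.7%) had the same sign, with a median of −0.23. Of 571 above 0, 296 (51.8%) had the same sign, with a median of 0.01, beside 49.2% of all genes tested at both times. The libraries of the time points are separate, and the genes were chosen by their value at 72 h. In 1 model of all 32 libraries, 239 genes (1.39% of 17227) had a higher interaction at 72 h and 81 (0.47%) a lower one.

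By list, sterol synthesis had a median of −0.68 at 24 h beside −0.79 at 72 h, whereas interferon and MHC genes had −0.04 beside 0.68, ERK output genes −0.02 beside 0.65 and chemokines 0.46 beside 1.51. TNC had 0.18 ± 0.30 at 24 h, and its difference between the times was 5.92, adjusted p = 3.15e-05. For SPRY4 the difference was 3.28, adjusted p = 3.23e-05, for KRT5 3.84, adjusted p = 1.55e-05, for CXCL16 1.83, adjusted p = 7.77e-06 and for CXCL1 4.12, adjusted p = 0.00171. At 72 h the sizes for TNC and CXCL1 are imprecise, as given above, and so are their differences between the times. For TM7SF2, with −1.07 ± 0.21 at 24 h, the difference was −0.68 and was not called (adjusted p = 0.14).

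**Figure D4:**
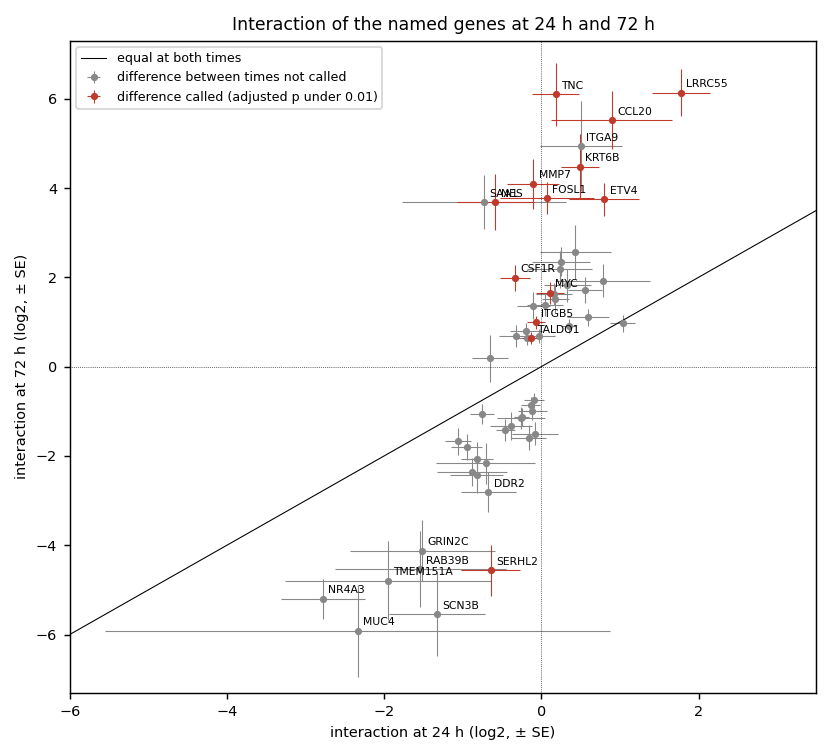
Interaction at 72 h (y axis, log2) against 24 h (x axis, log2) for the named genes tested at both times, with bars of 1 SE; red points differ between the times at an adjusted p under 0.01, and the line marks equal values. LRRC55, TNC and CCL20 lie near the top at 72 h with 24 h values of 1.78, 0.18 and 0.89.

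The number of called genes depended on the libraries and the fit. In 27 alternative fits the calls ranged from 317 above 0 and 340 below to 2613 and 2674, and 552 genes (290 above 0, 262 below) were called with the same sign in all 28 fits. None of the 1255 genes had an estimate of the opposite sign in any of them. Leaving out Das replicate 3 raised the calls to 1061 above 0 and 1406 below, and leaving out the unnumbered Sal library raised them to 910 and 981. Leaving out Das replicate 1 or 2, Sal replicate 2 or 3 or control replicate 2 or 3 lowered the calls above 0 to between 317 and 376. Below 0, leaving out any of these, control replicate 1 or S + D replicate 2 or 3 left between 340 and 438. Over the genes called below 0, the median log2 change from the control mean was 0.51 in Das replicate 3 and 0.94 to 1.35 in the other Das libraries.

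**Figure D5:**
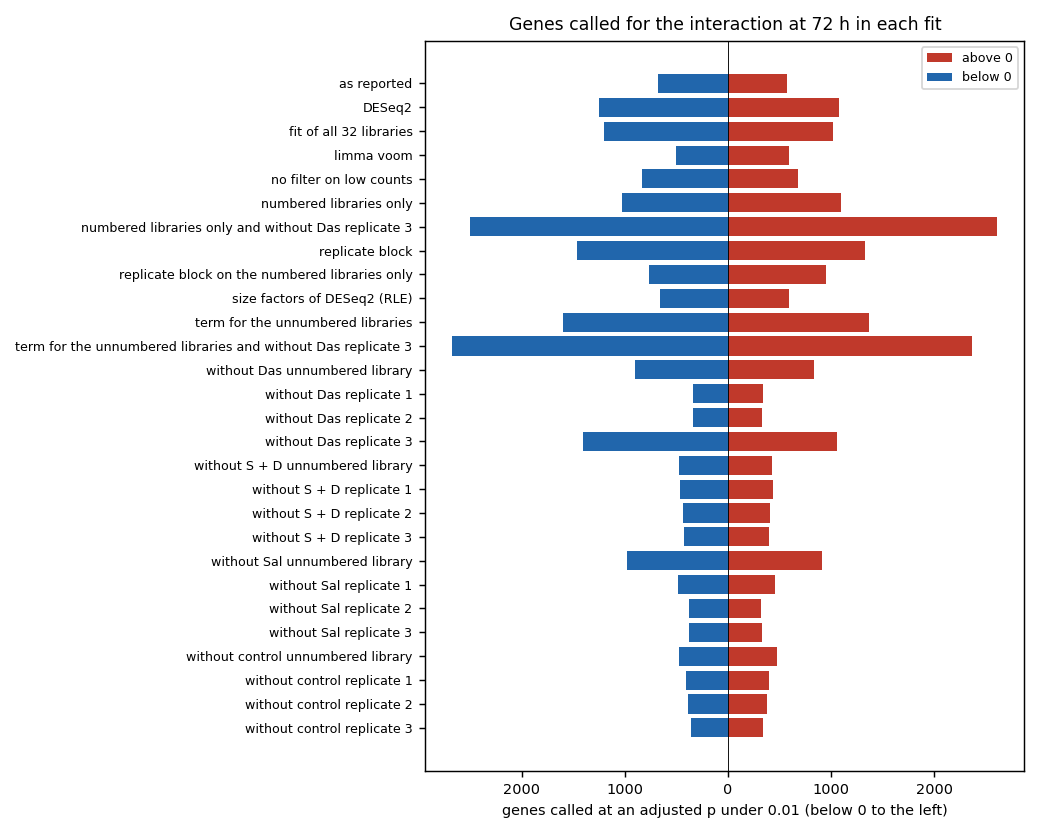
Number of genes called above 0 (red, right) and below 0 (blue, left) at 72 h in the fit as reported (573 and 682) and in 27 alternative fits. Fits that drop Das replicate 3 and account for the unnumbered libraries give the longest bars, up to 2613 above 0 and 2674 below.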

How the data were processed

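Total RNA of MDA-MB-468 cells was sequenced after TruSeq library preparation, in 4 libraries for each of 4 treatments at 24 h and 72 h. The labels call them biological replicates. Where nothing further ties them to separate cultures, p-values measure the spread between these libraries. Per the study's methods, the authors used bcl2fastq 2.19, aligned reads to GRCh37 with STAR 2.5.2, used Cufflinks 2.1.1 and compared groups with DESeq2. The deposited values are raw read counts per Ensembl gene in 1 table (48804 identifiers, of which 46537 matched a symbol in GENCODE v44lift37).

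From these counts, genes were kept by filterByExpr (minimum count 10), scaled by TMM and fitted with the quasi-likelihood test of edgeR 4.0.16 in R 4.3.3, with 1 coefficient per group over the 16 libraries at 72 h. The interaction is the contrast S + D − Sal − Das + control, two-sided, with Benjamini-Hochberg adjustment over all genes tested, and a call means an adjusted p under 0.01. Fitted log2 values carry edgeR's prior count of 0.125, so those of genes near 0 counts in a group are nearly unshrunk and imprecise. CPM in the text are linear, with SD over 4 libraries, and a floor of 3 counts per library was used where a group had no more. Depth at 72 h was 27812240 to 40234975 counts per library. The SE includes the spread between libraries as fitted by edgeR, whereas floors cover counting error only. The scripts were tested on simulated data, with interactions planted only in genes well above the floor in control and with moderate summed responses. The simulation held no shift shared by the unnumbered libraries. It does not cover the largest interactions reported or genes near the floor.

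The conditions, gene lists (23 lists, 780 distinct genes) and rules were chosen with earlier results of these data known. Named genes were, by rule, the 8 with the largest interaction on each side (mean of at least 10 CPM in 1 group), the 4 largest called with neither drug, the largest and smallest called gene of each list, and MYC, CCND1, E2F2 and ESR2. A further 21 genes and those beyond both single drugs were named after their values were seen. The motifs for NF-κB, SREBP and ISRE, and 2 fits (without Das replicate 3 together with the numbered libraries only or with a term for the unnumbered ones), were also chosen after seeing the data. Promoters are from RefSeq (GRCh38.p14, 11732 of 16682 tested genes matched). Alternatives were DESeq2 1.42.0, limma 3.58.1 (voom), other scaling, filter and thresholds, a replicate block and leaving out each library. Results for some genes are not reported here.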

Additional observations from a re-analysis of the deposited data

Results flagged for a closer look

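Single libraries stood apart from the other 3 of their group in 34 of 316 groups of 4 checked, where chance would give about 1 in 20, and 20 of the 34 were unnumbered libraries. Values are in CPM. Among the unnumbered libraries, the Sal one was higher than the others for TNC (2.82), IGFBP3 (538), F3 (38.1), HMOX1 (15.1), CSF1R (11.2), ID1 (9.52) and TAP1 (50.8), and lower for HERPUD1 (856) and GADD45A (60.6). The unnumbered control was higher for FOSL1 (7.95), ID1 (90.6), LIF (57.0) and TAP1 (87.1) and lower for NPNT (31.4). The unnumbered Das library was higher for SAA1 (2.73), IGFBP3 (274), CCL20 (0.316) and TNF (0.535), and the unnumbered S + D library for TAP1 (62.7) and SPRY4 (2.59). Das replicate 3 was higher for NES (8.79), RFC2 (52.0) and CCND1 (98.1), and lower for GADD45A (40.6) and KRT81 (476). S + D replicate 1 was higher for FBL (308), TALDO1 (230.0) and HSPA5 (4499), and lower for CA12 (3.23), DDR2 (2.45) and KITLG (16.9). Of the remaining 3, Sal replicate 3 was high for ITGA9 (0.21), Das replicate 1 low for MMP7 (0.154) and control replicate 3 low for ATM (48.7). The part of these libraries in the results was not tested beyond the fits without them.

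For 22 genes the interaction at 72 h differed from that at 24 h at an adjusted p under 0.01 in a fit of all 32 libraries with edgeR. It was higher at 72 h, in log2 units, by 5.92 for TNC, 4.65 for CCL20, 4.37 for LRRC55, 4.28 for NES, 4.21 for MMP7, 4.12 for CXCL1, 4.00 for KRT6B, 3.84 for KRT5, 3.73 for OGDHL, 3.72 for FOSL1, 3.59 for TNF, 3.28 for SPRY4, 2.96 for ETV4, 2.34 for CSF1R, 1.83 for CXCL16, 1.56 for MYC, 1.27 for SRC, 1.22 for ITGA3, 1.08 for ITGB5 and 0.79 for TALDO1. For SERHL2 it was −3.90 and for CRISP3 −2.27. All of these genes were chosen for their values at 72 h. For TNC, CCL20, LRRC55, MMP7, CXCL1 and KRT6B the sum at 72 h lies under 1 count in a library, and for TNF under 3, so these sizes are imprecise.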

How the results depend on the processing

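The interaction rests on 1 cell line, 1 dose pair and 4 libraries a group, and its SE combines 4 group means. With 573 genes above 0 and 682 below at 72 h as reported, calls were 1073 and 1251 with DESeq2, 1018 and 1202 in a fit of all 32 libraries, 1094 and 1031 in the numbered libraries, 2613 and 2503 in the numbered libraries without Das replicate 3, 1371 and 1600 with a term for the unnumbered libraries, 2367 and 2674 with that term and without Das replicate 3, 1383 and 1739 at an adjusted p under 0.05, and 231 and 279 with an absolute log2 interaction above 1.5. With voom (592 and 508), DESeq2 size factors (592 and 657) and no filter (683 and 830) the counts stayed within 1.5 times. Same-numbered libraries other than the unnumbered ones correlated in their deviations by −0.04 to 0.28 at 72 h and 0.16 to 0.36 at 24 h, but with deviations taken among the numbered libraries alone by −0.23 to 0.08 and −0.11 to 0.11, so the numbers were not treated as pairing the libraries. With the replicate block the counts were 1331 and 1463, and on the numbered libraries with the block 948 and 771. Leaving out 1 library gave 317 to 1061 above 0 and 340 to 1406 below, and on the linear scale 1249 of 1255 genes kept their direction. For the 391 genes above 0 that both drugs lowered, the linear scale could not change it. At 24 h, with 0 above and 5 below as reported, DESeq2 gave 17 and 130, no filter 0 and 10, the numbered libraries 95 and 732, the replicate block 12 and 105, DESeq2 size factors 0 and 9, an adjusted p under 0.05 5 and 38, and leaving out 1 library 0 to 3 and 4 to 24. Of 320 genes that differed between the times, DESeq2 gave 775, the numbered libraries 2276, the replicate block 1649, an adjusted p under 0.05 1236, and leaving out 1 library 164 to 958. No filter gave 221 and DESeq2 size factors 311. Of the genes named with their own values, 25 lost their call in some setting (198 gene and setting pairs against 1998 that kept their side) and CCND1, E2F2 and ESR2 gained one in 14 pairs. Only E2F2 changed sign, to −0.02 without Das replicate 1, with a range of −0.16 (without the unnumbered S + D library) to 0.67 over the fits that leave out 1 library. The causes of these shifts were not tested.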
